A study of Homo sapiens with 18 samples.

Results

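The difference between the transcriptional responses of 2 G401 lines to the EZH2 inhibitor tazemetostat was measured gene by gene. G401 is an established malignant rhabdoid tumour cell line. The control, labelled WT, had been edited at the AAVS1 safe harbour site and kept wild-type RB1, and E1 was a clone in which CRISPR/Cas9 had disrupted both copies of RB1. Each line was grown for 11 days in 10 µM tazemetostat or in the same volume of its solvent DMSO, in 3 biological replicates, which gave 4 groups and 12 of the 18 libraries of the series. The other 6 libraries came from F2, another RB1-deleted clone grown under the same conditions. E1 and F2 are each a clone, so what is particular to a clone cannot be told apart from the loss of RB1. All lines share the G401 background, including its missing SMARCB1 transcript.

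The members were the genes with a mean normalized count of at least 10 over the 12 libraries, 16082 of the 55765 in the deposited table. For each of them the change with tazemetostat in WT was subtracted from the change in E1, and this response difference was tested. A gene was called when its Benjamini-Hochberg adjusted p from limma was under 0.05 and its log2 difference was at least 1 in size. The same threshold decided whether a response was present in a line, and a response under 0.5 in size (log2) was taken as absent. All log2 values are on the scale log2(normalized count + 1), which understates changes of low genes.

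EZH2 is the catalytic subunit of PRC2, the complex that trimethylates lysine 27 of histone H3 and keeps developmental genes silent. SMARCB1 belongs to the SWI/SNF remodelling complex that opposes PRC2, and its loss defines rhabdoid tumours. The RB1 protein binds E2F transcription factors and restrains genes needed for DNA replication, while the related pocket proteins RBL1 and RBL2 act with the DREAM complex on E2F and CHR elements of cell cycle promoters. CDK inhibitors such as p16 and p21 keep the pocket proteins active.

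Each of the 12 libraries held between 28954561 and 39314860 reads. RB1 transcript, the targeted gene, was at 2828, 2687 and 2565 normalized counts in the 3 WT libraries with DMSO, and at 658, 505 and 780.3 in the 3 E1 libraries. With tazemetostat it was at 2517, 2606 and 2300.4 in WT and at 939, 947 and 1045 in E1. E1 thus held 24.0% of the WT level in DMSO and 39.5% under tazemetostat, and its highest library lay below the lowest WT library. The RB1 response difference of 0.74 ± 0.17 (SE, limma adjusted p = 0.0054) did not reach the fold limit. SMARCB1 had 0 reads in all 12 libraries. At most 3 reads in each library of a group are called the floor here. The mesenchymal marker VIM lay between 32884 and 69993 normalized counts. Of the 8 haematopoietic markers looked for, PTPRC, CD3E, SPI1 and HBB had at most 2 reads in any library, and 2 others passed the filter. By the threshold 1 of these 2 rose in WT and both rose in E1, with medians of 1.2 and 1.52. Neither had a called response difference. The summed level of all 8 markers per library was 21.8 to 24.5 normalized counts in untreated WT, 39.3 to 63.1 in treated WT, 29.5 to 32.1 in untreated E1 and 102 to 116 in treated E1. Of 5 endothelial markers in the table only VWF passed the filter, and of 6 epithelial markers CDH1 and CLDN4 did.

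Tazemetostat changed more genes in WT than in E1 by these calls. In WT 3410 genes passed the threshold (21.2% of those tested), 2338 of them higher (14.5%) and 1072 lower (6.67%). In E1 2406 did (15.0%), with 1806 higher (11.2%) and 600 lower (3.73%). The response itself differed for 1572 genes (9.77%): it was higher in E1 for 740 (4.6%) and lower for 832 (5.17%). On whole reads, the quasi-likelihood test of edgeR called 1304 (8.11%), of which 1251 were among the 1572. DESeq2 called 1241 of the 15768 genes it gave an adjusted p (7.87%).

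The calls were then compared between the lines. Of the 1072 genes that fell in WT, 277 also fell in E1, 4 rose and 791 were not called there, although the response difference was called for only 395 of the 1072 (36.8%). Of the 2338 genes that rose in WT, 1622 also rose in E1, 7 fell and 709 were not called, and the difference was called for 796 (34.0%). Of the 600 falls in E1, 162 differed from WT (27.0%), as did 577 of its 1806 rises (31.9%). A response seen in only 1 line is therefore read below as a difference only where the difference itself was called.

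The 1572 genes fell into 7 classes. In 480 (2.98%) the WT response was lost in E1: 311 were falls (1.93% of the genes tested) and 169 rises (1.05%). In 222 (1.38%) it was reduced but not absent, 180 rises (1.12%) and 42 falls (0.261%). A response absent from WT was gained in E1 by 104 genes, 24 rises (0.149%) and 80 falls (0.497%), and a response of the same sign that was not absent from WT was larger in E1, here called increased, in 211 (1.31%), 172 rises (1.07%) and 39 falls (0.243%). In 87 genes (0.541%) the estimates were of opposite sign, each at least 0.5 in size and at least 1 of them a present response: 57 with the WT estimate above 0 (0.354%) and 30 with it below (0.187%). Both responses were present in 11 of the 87. In 212 genes neither response was present on its own although their difference was called (1.32%). The last 256 (1.59%) had 3 reads or fewer in each of the 6 DMSO libraries, so that they had no measured baseline. Outside this last class edgeR called 1238 of 1316 genes (94.1%), and within it 13.

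**Figure D1:**
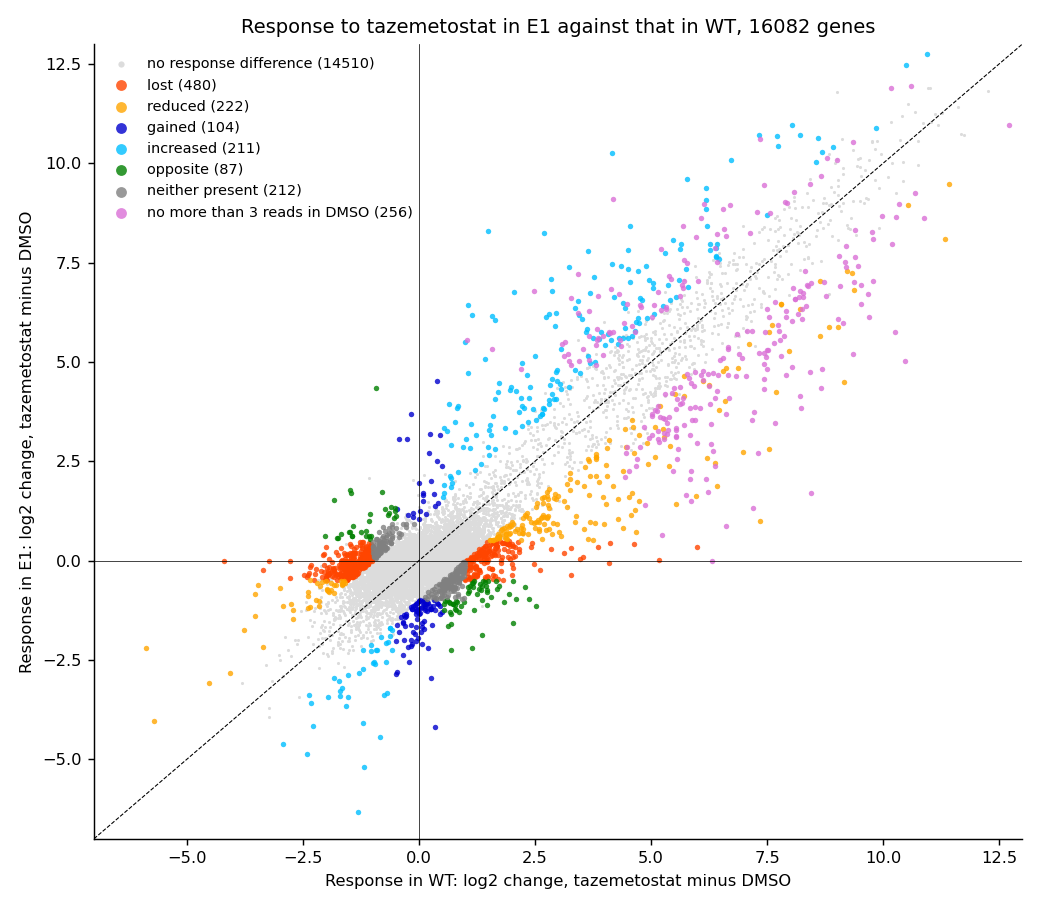
Log2 change with tazemetostat in E1 (vertical axis) against that in WT (horizontal axis) for 16082 genes, 1 point per gene, coloured by class, with the line of equal response dashed. The 311 lost falls lie left of zero near the horizontal axis, with a median of -1.42 in WT and -0.09 in E1.

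The largest class by count was that of falls present in WT and absent in E1. The median log2 response of its 311 genes was -1.42 in WT and -0.09 in E1. Of these genes 94 (30.2%) stood on the lists of G1/S and E2F targets or of G2/M and mitosis genes, which hold 153 of the 16082 genes tested (0.951%). E1 and WT differed for 228 of the 311 (73.3%, against 9.12% of all genes tested) only under tazemetostat. For 7 they differed only in DMSO (2.25%, against 2.65%). E2F8, an atypical E2F that represses transcription, was at 1163, 1265 and 1223 normalized counts in WT with DMSO and at 243, 229 and 225 with tazemetostat. In E1 it was at 713, 711 and 850.4 and 566, 608 and 595. The WT groups were 5.23-fold apart and the E1 groups 1.29-fold, and no library of either treated E1 or untreated E1 came as low as the treated WT libraries. The E1 groups did not overlap either. Their response of -0.36 (limma adjusted p = 0.0044) was absent only in the sense of being under 0.5 in size. The response difference was 2.03 ± 0.12 (SE, limma adjusted p = 1.2e-07).

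CCNB3, a B-type cyclin, fell from 62.9, 47.1 and 56.8 to 9.85, 7.48 and 4.93 normalized counts in WT. In E1 its libraries overlapped, at 69.7, 39.6 and 78.9 with DMSO and 77.7, 60.0 and 45.2 with tazemetostat, and its response difference was the largest of the class among the genes the naming rule allowed, 2.77 ± 0.42 (SE, limma adjusted p = 0.00021). DLEU2, a long non-coding RNA of a region often deleted in chronic lymphocytic leukaemia whose reads may be shared with overlapping genes, went from 329, 359 and 337 to 61.1, 60.8 and 60.3 in WT and from 230.4, 253 and 284 to 193, 198 and 204 in E1, with a difference of 2.11 ± 0.16 (SE, limma adjusted p = 6e-07). The E1 groups of DLEU2 did not overlap, with a response of -0.36 (limma adjusted p = 0.016). WDR76, a WD-repeat protein, fell 5.29-fold in WT, from 2053 ± 94 to 388 ± 54.8 (SD, n = 3). In E1 it went from 2722 ± 159 to 2071 ± 182, a smaller fall of -0.40 on the log2 scale (limma adjusted p = 0.0046).

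Among the 76 G1/S and E2F targets tested, the response was higher in E1 for 46 and lower for 0, against 4.6% and 5.17% of all genes tested. All but 1 of the 76 had an estimate above 0, and the median difference was 1.17 against 0.01 over all genes. The median response of the list was -1.25 in WT and -0.15 in E1. By class, 44 of the 46 were lost falls, with E2F2 a reduced fall and BRCA2 present in neither line. The summed level of the list was 219696 to 238488 normalized counts per library in WT with DMSO and 95496 to 105102 with tazemetostat. In E1 it was 252400.0 to 257140.0 and 215538 to 238375. The treated E1 libraries thus overlapped untreated WT in this sum but lay below every untreated E1 library, and treated WT lay below all others. The other 30 members did not pass, among them E2F1 (0.43) and CCNE1 (0.17).

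Of the 77 G2/M and mitosis genes tested, 59 had a higher response in E1 (76.6%, against 4.6% of all genes tested) and 0 a lower one. All 77 estimates were above 0. The median response was -1.15 in WT and 0.03 in E1. CCNA2, the cyclin of S phase and G2, was at 4615, 4314 and 4117 normalized counts in WT with DMSO and 1169, 1244 and 972 with tazemetostat. In E1 it was at 3264, 3796 and 3776 and 2783, 3249 and 3086. The lines did not overlap under either treatment. Without inhibitor E1 lay lower than WT, at -0.27 on the log2 scale (limma adjusted p = 0.07). With it E1 lay higher, at 1.43 (limma adjusted p = 5.5e-08). The response difference of CCNA2 was 1.70 ± 0.14 (SE, limma adjusted p = 1.1e-06). MKI67, the proliferation antigen, was at 13650.4, 16489 and 16217 in WT with DMSO and 5768, 6023 and 5598 with tazemetostat, and at 16039, 11689.5 and 14425 and 15389, 15251 and 16948 in E1. The E1 libraries of MKI67 overlapped between treatments, and the difference was 1.60 ± 0.15 (SE, limma adjusted p = 3.9e-06). AURKB, a mitotic kinase, gave 1.27 ± 0.16 (SE, limma adjusted p = 6.1e-05), and SPC25, a kinetochore protein, 1.71 ± 0.20 (SE, limma adjusted p = 2.4e-05). The summed level of this list was 306333 to 326420.0 in WT with DMSO, 134546 to 151508 with tazemetostat, and 295926 to 321415 and 286644 to 325421 in E1. In bulk RNA, fewer cells of a kind and less RNA per cell cannot be told apart.

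Promoter sequences were examined for the lost falls on these 2 lists, since the cell cycle elements known from such promoters are short and can be read directly. Of the 94 genes, 79 (84.0%) had an entry among the RefSeq promoters of GRCh38.p14, which run from 250 bases before to 50 bases after the start, and they had 98 promoters. E2F letters (TTTCCCGC, TTTCGCGC, TTTGCCGC or TTTGGCGC, on either strand) stood in 25 of these (25.5%), against 3.31% of all 35116 promoters in the table. CHR letters (TTTGAA on either strand) stood in 34 (34.7%, against 15.2%), and CCAAT in 68 (69.4%, against 34.6%). None of these words contains another. The comparison shares include promoters of genes that were not tested here. Of the genes tested, 68.1% had an entry. A match describes the letters only. The genes were taken from lists of E2F target and cell cycle genes, so such letters were likely in advance. List members outside this class were not compared, so the shares say nothing about the loss of the response. For the other classes under 80% of genes had an entry, and no share is given. The windows below are of 80 bases upstream of the start on GRCh38.p14, read 5′ to 3′ on the gene's strand, with the match in capitals. They were chosen after values were seen, as the genes with the largest response differences that held a match, plus RBL1 and MKI67, which hold 2 matches each. The first 3 show E2F letters and the last 3 CHR letters.
CDCA7 (chr2:173354771-173354850, plus strand): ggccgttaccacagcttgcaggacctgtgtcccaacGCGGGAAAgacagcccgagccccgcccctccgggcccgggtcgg
GINS2 (chr16:85688955-85689034, minus strand): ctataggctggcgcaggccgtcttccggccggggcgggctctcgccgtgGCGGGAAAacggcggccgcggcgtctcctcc
RBL1 (chr20:37095998-37096077, minus strand): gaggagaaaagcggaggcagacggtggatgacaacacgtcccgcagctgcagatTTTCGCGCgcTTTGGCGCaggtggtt
SPC25 (chr2:168890601-168890680, minus strand): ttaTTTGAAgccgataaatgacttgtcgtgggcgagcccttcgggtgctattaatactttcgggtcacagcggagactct
ASPM (chr1:197146740-197146819, minus strand): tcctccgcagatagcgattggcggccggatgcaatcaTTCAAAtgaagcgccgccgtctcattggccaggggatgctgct
MKI67 (chr10:128126424-128126503, minus strand): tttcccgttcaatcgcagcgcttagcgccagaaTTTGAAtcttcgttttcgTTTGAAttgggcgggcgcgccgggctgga

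CDCA7, a target of E2F and MYC, responded by -1.59 in WT and 0.15 in E1 on the log2 scale. GINS2, a subunit of the replicative helicase, responded by -2.09 and -0.41, and ASPM, a spindle pole protein, by -1.96 and -0.35. All 6 genes fell in WT and none was called in E1.

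The inhibitor's own target was among the lost falls. EZH2 transcript was at 2560.1, 2492 and 2383 normalized counts in WT with DMSO and fell to 916, 880.1 and 832 with tazemetostat. In E1 the libraries stood at 2944, 3011 and 3579 with DMSO and 2916, 3023 and 3028 with tazemetostat, where they overlapped. The difference was 1.42 ± 0.11 (SE, limma adjusted p = 7.6e-07). Of the 11 PRC2 subunits tested, 2 had a higher response in E1 (18.2%, against 4.6% of all genes tested) and 0 a lower one. JARID2, an accessory subunit that helps recruit PRC2, was the other: it rose from 94.3, 101 and 112 to 1398, 1415 and 1495 in WT and from 56.3, 37.6 and 41.9 to 1464, 1459 and 1491 in E1. Under tazemetostat the lines differed by 0.04 on the log2 scale and in DMSO by -1.18, and the response difference was 1.21 ± 0.18 (SE, limma adjusted p = 0.00022). The core subunits EED and SUZ12 gave 0.73 and 0.28, and the accessory subunit PHF19 0.92, none past the fold limit.

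Of the 10 pocket proteins and CDK inhibitors tested, RBL1 and CDKN2C had a higher response in E1 and 0 a lower one. Over all genes tested, 4.6% had a higher and 5.17% a lower response in E1. RBL1, a pocket protein of the same family as RB1, was at 1151, 1227 and 1084 normalized counts in WT with DMSO and 407, 456 and 392 with tazemetostat. In E1 it was at 1022, 839.9 and 1123 and 942, 1084 and 1097, which overlapped, and the difference was 1.54 ± 0.15 (SE, limma adjusted p = 6.7e-06). CDKN2C, which encodes the CDK inhibitor p18, fell 3.06-fold in WT and was 1.43-fold lower in E1, with a difference of 1.10 ± 0.12 (SE, limma adjusted p = 1.1e-05). CDKN1A, which encodes p21, did not reach the fold limit: it went from 2495, 2461 and 2331 to 4329, 4364 and 4161 in WT, whereas E1 stood at 10527, 11784 and 8991 before and 10891, 10559 and 10771 after. E1 was thus above WT in every library with either treatment, and the response difference was -0.77 ± 0.12 (SE, limma adjusted p = 0.00022). CDKN2A gave -0.85 ± 0.12 (SE, limma adjusted p = 8.6e-05) and its neighbour CDKN2B -0.55 ± 0.14 (SE, limma adjusted p = 0.0087), with responses of 1.74 and 3.26 in WT and 0.88 and 2.71 in E1. Reads of CDKN2A, CDKN2B and the antisense gene at their locus may be shared, since the strand setting of the counting was not given in the sources used here. CDKN1C, at 18.5 to 67.7 normalized counts in all 12 libraries, gave 0.19 ± 0.39 (SE, limma adjusted p = 0.75), whose sign changed without E1 DMSO replicate 3 (-0.05) or WT tazemetostat replicate 1 (-0.08).

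**Figure D2:**
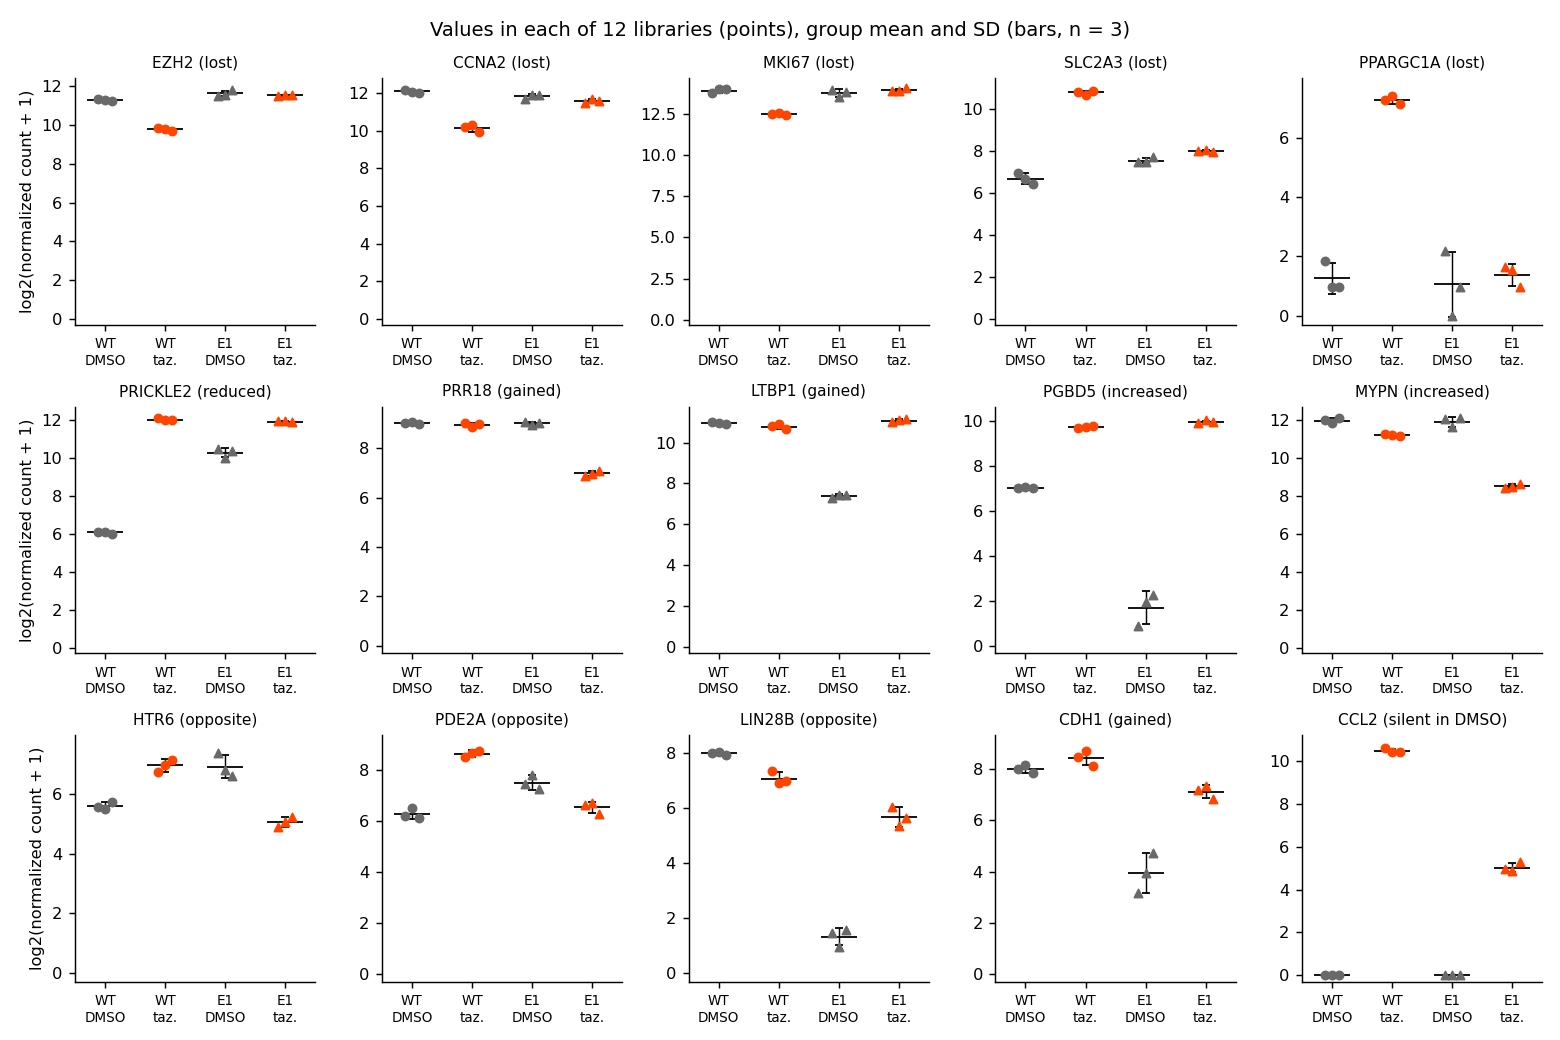
Values of 15 genes in each of 12 libraries as log2(normalized count + 1), with WT as circles, E1 as triangles, DMSO in grey and tazemetostat in red, and bars for the mean and SD of 3 libraries. By the threshold, EZH2, CCNA2 and MKI67 drop and SLC2A3 and PPARGC1A climb in treated WT alone, and PRR18 drops in treated E1 alone. SLC2A3 also lies 1.36-fold higher in treated than in untreated E1. PGBD5 starts lower in E1 and ends level with WT.

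Among the 169 rises that were lost, the median response was 1.46 in WT and 0.09 in E1. PPARGC1A, a coactivator of mitochondrial biogenesis, was at 2.62, 0.942 and 0.946 normalized counts in WT with DMSO and at 151, 166 and 140.4 with tazemetostat, at least 53.7-fold higher. In E1 it stayed at 3.57, 0 and 0.974 and 2.13, 1.93 and 0.942, around the floor in both groups, and the difference was -5.67 ± 0.65 (SE, limma adjusted p = 2.2e-05). SLC2A3, a glucose transporter, was at 122, 101 and 85.2 in WT with DMSO and 1815, 1642 and 1858 with tazemetostat. In E1 it was at 176, 174 and 206 and 250.2, 262 and 244, which did not overlap either but lay 1.36-fold apart, against 17.2-fold in WT. Its difference was -3.66 ± 0.18 (SE, limma adjusted p = 1.4e-08). ALPPL2, a placental-type alkaline phosphatase, rose 17.1-fold in WT, from 66.9 ± 17.9 to 1141 ± 117, and was at 59.6 ± 12.8 and 58.3 ± 20.1 in E1. It has near-identical relatives, and how reads that match several of them were counted was not given in the sources used here.

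In a further 180 genes a rise was reduced, from a median of 3.31 in WT to 1.46 in E1. PRICKLE2, a planar cell polarity protein, was at 68.1, 67.9 and 63.4 normalized counts in WT with DMSO but already at 1423, 1034 and 1333 in E1. Under tazemetostat the lines held 4386, 4078 and 4114 and 3931, 3916 and 3794, which differed by -0.11 on the log2 scale (limma adjusted p = 0.38). Both lines rose and ended near each other from unlike starts, and the response difference was -4.33 ± 0.14 (SE, limma adjusted p = 2.8e-10). HLA-DPB1, an MHC class II chain, rose at least 94.6-fold in WT, to 269 ± 11.4, and 3.38-fold in E1, to 49.2 ± 3.42. Of the 180, the lines differed for 56 only under tazemetostat (31.1%, against 9.12% of all genes tested). For 57 they differed only in DMSO (31.7%, against 2.65%) and for 23 in both.

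Of 19 MHC class I and antigen processing genes tested, 4 had a lower response in E1 (21.1%, against 5.17% of all genes tested) and 0 a higher one. Of the 19 estimates, 18 were below 0, with a median of -0.57. HLA-E, a class I molecule that NK cells read, was at 3939, 3858 and 3718 normalized counts in WT with DMSO and 10618, 10491 and 10040.3 with tazemetostat. E1 held 4145, 5067 and 3633 and 5031, 4776 and 4740.1, where the groups overlapped, and the difference was -1.24 ± 0.13 (SE, limma adjusted p = 1.2e-05). HLA-B went from 509 ± 10.9 to 4865 ± 184 in WT and from 879.7 ± 141 to 3626 ± 137 in E1, with -1.20 ± 0.13 (SE, limma adjusted p = 1.5e-05). HLA genes share long near-identical stretches, so their counts are uncertain. The remaining pair, TAP1 (a peptide transporter, -1.14) and PSMB9 (an immunoproteasome subunit, -1.07), were named after their values were seen. Both were higher in E1 than in WT already in DMSO, by 1.11 and 1.86.

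Of 38 interferon-stimulated genes tested, 11 had a lower response in E1 (28.9%, against 5.17% of all genes tested) and 1, XAF1, a higher one (2.63%, against 4.6%). The median was -0.51. XAF1 and 4 of the 11 had no baseline in DMSO. IFI6, an interferon-induced mitochondrial protein, was among the opposite responses, with WT under the fold limit (0.77). It went from 657, 679.5 and 667 to 1166, 1122 and 1138 normalized counts in WT and fell from 748, 1080.2 and 751 to 382, 339 and 370.3 in E1, without overlap in either line, with a difference of -1.99 ± 0.17 (SE, limma adjusted p = 1.6e-06). RSAD2, the antiviral protein viperin, had at most 1 read in any DMSO library and reached 98.5, 88.9 and 73.9 in treated WT and 26.6, 31.9 and 34.9 in treated E1. Its difference was -1.78 ± 0.42 (SE, limma adjusted p = 0.0057) in limma, but edgeR gave an adjusted p of 0.2. Among the others, named after their values were seen, ISG15 gave -1.54 and IFITM1 -1.65, the second through a fall in E1 (-1.79) that WT lacked (-0.13).

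Of 19 cytokines and chemokines tested, 8 had a lower response in E1 (42.1%, against 5.17% of all genes tested), 4 of them without a baseline in DMSO. A higher response was called for 1 (5.26%, against 4.6%), and the median was -0.63. CCL2, which attracts monocytes, had 0 reads in all 6 DMSO libraries. It was at 1539, 1374 and 1357 normalized counts in treated WT and at 29.8, 28 and 37.7 in treated E1, so that it was detected in every treated library and the treated groups did not overlap. The difference was -5.45 ± 0.29 (SE, limma adjusted p = 2.7e-08), where edgeR gave an adjusted p of 1 and DESeq2 0.0053. CXCL1, which attracts neutrophils, was the member with a higher response: 13.1, 1.88 and 3.79 to 628, 655 and 564 in WT against 0 to 1034, 1147 and 1052 in E1, with 3.34 ± 0.56 (SE, limma adjusted p = 0.00048). IL6, named after its values were seen, gave -2.74: its mean went from 21.1 to 429 in WT and from 434 to 1275 in E1, so that E1 stayed the higher line.

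Falls that were reduced numbered 42, with medians of -2.18 in WT and -0.78 in E1. KCNT2, a sodium-activated potassium channel subunit, fell from 414, 389 and 495 to 38.4, 36.5 and 34.5 normalized counts in WT. In E1 it fell from 409.9, 302 and 410.1 to 139, 132 and 147, less far and without overlap, with a difference of 2.13 ± 0.20 (SE, limma adjusted p = 4e-06). ACSBG1, an acyl-CoA synthetase, fell 8.12-fold in WT and 2.26-fold in E1. CALCRL, a receptor for calcitonin gene-related peptide and adrenomedullin, fell from 472 ± 42.1 to 9.05 ± 5.45 in WT and from 156 ± 37.3 to 8.78 ± 2.99 in E1, ending at like levels. Its difference of 1.68 ± 0.50 (SE, limma adjusted p = 0.021) was no longer called without E1 tazemetostat replicate 2 (limma adjusted p = 0.053) or replicate 3 (0.056).

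Of the 104 responses gained in E1, 80 were falls and 24 rises. PRR18, a proline-rich protein, was at 521, 536 and 499.7 normalized counts in WT with DMSO, 514, 464 and 509.8 in WT with tazemetostat and 528, 491 and 513 in E1 with DMSO, 3 groups that overlapped. With tazemetostat E1 was at 116, 124 and 136, 4.08-fold lower than without it, and the difference was -1.96 ± 0.13 (SE, limma adjusted p = 2.4e-07). CRISPLD1, a secreted cysteine-rich protein, gave -2.41 ± 0.60 (SE, limma adjusted p = 0.0078) at 33.2 ± 8.99 in untreated and 7.40 ± 4.60 in treated E1. RPS15AP36, a ribosomal protein pseudogene whose reads may come from its parent gene, went from 66.9 ± 10.7 to 8.25 ± 3.99 in E1, which brought it to the level of the WT groups. HOXB13, named after its values were seen, responded by -0.17 in WT and -1.61 in E1.

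For the gained rises the line difference in DMSO had a median of -1.33. LTBP1, which stores latent TGF-beta in the matrix, was at 2049, 1985 and 1916 normalized counts in untreated WT, 1785, 1885 and 1608 in treated WT, 153, 172 and 174 in untreated E1 and 2039.9, 2179.9 and 2256 in treated E1. Untreated E1 stood apart from the other 3 groups, and the difference was 3.87 ± 0.12 (SE, limma adjusted p = 1.6e-10). PRKD3, a protein kinase D, was at 206, 153 and 251 in untreated and 1670.5, 1883 and 1894 in treated E1, against 876 ± 11.4 and 1038 ± 36.1 in WT. CDH1, the epithelial adhesion molecule E-cadherin, was at 8.04, 14.5 and 25.3 in untreated and 146, 159.6 and 114 in treated E1. In WT it was at 256, 283 and 230.0 and 357, 422 and 281, above E1 in every library under both treatments, and the difference was 2.73 ± 0.42 (SE, limma adjusted p = 0.00023). The summed level of the 6 epithelial markers was 308 to 351 in untreated WT, 570.2 to 639 in treated WT, 58.9 to 72.4 in untreated E1 and 267 to 289 in treated E1. The epithelial markers EPCAM and CLDN7 had at most 19 reads in any library, and CLDN4 gave -0.48 (limma adjusted p = 0.14). CLDN16, a tight junction protein of the kidney, gave 3.31 ± 0.58 (SE, limma adjusted p = 0.00074) with 1.91 ± 1.69 in untreated E1.

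Increased rises, 172 in number, had medians of 3.3 in WT and 5.67 in E1. In 58 of them untreated E1 was at the floor of 3 reads or fewer, and with such genes at their bound the median difference was 1.49 in place of 1.81. The lines differed only in DMSO for 90 of the 172 (52.3%, against 2.65% of all genes tested) and only under tazemetostat for 25 (14.5%, against 9.12%). PGBD5, a protein derived from a DNA transposase, was at 128, 133 and 129 normalized counts in untreated WT and 0.893, 2.90 and 3.90 in untreated E1. With tazemetostat it was at 838, 851 and 867 and 969.9, 1042 and 986. The lines were thus far apart without inhibitor, where E1 had 1 to 4 reads per library, and 1.17-fold apart with it, and the response difference was 5.54 ± 0.35 (SE, limma adjusted p = 1.5e-07). MDFIC, an inhibitor of myogenic factors, had at most 1 read in untreated E1 and 345, 399 and 447 in treated E1, at least 136-fold higher, against 2.82-fold in WT. PTGFRN, a membrane protein that associates with tetraspanins, rose at least 742-fold in E1, to 2167 ± 111, and 16.8-fold in WT, to 894 ± 83.8.

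The 39 increased falls had medians of -1.18 in WT and -2.87 in E1. MYPN, the sarcomere protein myopalladin, was at 4001, 3571 and 4298 normalized counts in untreated WT and 4168, 3098 and 4294 in untreated E1, which overlapped. With tazemetostat it was at 2414, 2366 and 2234 in WT and 341, 352 and 395 in E1, 1.69-fold and 10.6-fold lower. LHX6, a LIM homeobox factor of interneuron development, went from 4225, 4139 and 3887 to 2608, 2506 and 2463 in WT and from 4409.6, 4219 and 3772 to 400.3, 403 and 425 in E1. Both pairs started alike and ended apart, with differences of -2.64 ± 0.16 (SE, limma adjusted p = 1e-07) and -2.64 ± 0.10 (SE, limma adjusted p = 9.8e-10). GRAMD3 differed in that untreated E1 was high, at 384 ± 25.6 against 34 ± 10.5 in WT, and both lines ended at 22 ± 5.00 and 14.3 ± 4.87.

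Opposite responses by these estimates were found in 87 genes, in most of them with 1 of the 2 short of the threshold. HTR6, a serotonin receptor, rose from 47.2, 44.3 and 53 to 106, 127 and 143 normalized counts in WT and fell from 166, 112 and 96.4 to 28.7, 32.9 and 36.7 in E1, without overlap within either line. PDE2A, a cyclic nucleotide phosphodiesterase, rose from 72.5, 89.5 and 68.1 to 361, 402 and 431 in WT and went from 173, 225 and 151 to 99, 103 and 77.3 in E1. The differences were -3.22 ± 0.29 (SE, limma adjusted p = 2.3e-06) and -3.33 ± 0.24 (SE, limma adjusted p = 5e-07), with the E1 response of PDE2A (-0.96) just under the fold limit. RNF182, a ubiquitin ligase, rose 4.91-fold in WT from 141 ± 10.1 and was 1.59-fold lower in E1 than its untreated 1674 ± 198, a response of -0.66 that did not reach the fold limit. The axon guidance receptor EPHA3, named after its values were seen, was called in WT and not in E1 (-0.72), with means of 61.5 to 197 in WT and 8939 to 5404 in E1.

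In the other direction, LIN28B, an RNA-binding protein that blocks let-7 maturation, went from 256, 261 and 243 to 159.6, 119 and 124 normalized counts in WT, short of the fold limit (-0.92). In E1 it was at 1.79, 0.965 and 1.95 without and 64.9, 39.7 and 49 with tazemetostat, at least 17.5-fold higher, and it stayed below every WT library. The difference was 5.26 ± 0.31 (SE, limma adjusted p = 7.5e-08). PDE11A, another phosphodiesterase, and RAG2, a recombinase subunit, were placed in this class by their estimates, but E1 lay at or around the floor in both groups. PDE11A was at 0 in untreated and 3.19, 0.967 and 1.88 in treated E1, while WT fell from 864 ± 55.1 to 244 ± 31. RAG2 was at 0, 0 and 0.974 and 3.19, 3.87 and 2.83 in E1. The call of an opposite response therefore rests on a few reads in these 2 genes.

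The class in which neither response was present held 79 genes whose response was higher in E1 (0.491%) and 133 whose response was lower (0.827%). WNT5B, a Wnt ligand, went from 152, 142 and 159.9 to 274, 253 and 289 normalized counts in WT and from 209, 193 and 182 to 99, 106 and 108 in E1. Each shift stayed under the fold limit, at 0.84 and -0.89, and their difference was -1.73 ± 0.16 (SE, limma adjusted p = 3.3e-06). DLL4, a Notch ligand, gave -1.91 ± 0.36 (SE, limma adjusted p = 0.0012) and AKAP7, a kinase anchoring protein, 1.62 ± 0.20 (SE, limma adjusted p = 4e-05), each again from shifts of both lines in opposite directions (0.98 and -0.93 for DLL4, -0.78 and 0.84 for AKAP7). FRZB, a secreted Wnt antagonist, gave 1.58 ± 0.44 (SE, limma adjusted p = 0.015) with 0.893, 3.86 and 2.92 normalized counts in untreated and 3.19, 5.80 and 4.71 in treated E1, and DESeq2 put it at an adjusted p of 0.05. MYH3 (1.45) and MYL10 (-1.89), a myosin heavy and a myosin light chain, completed the named genes. This class was the one that leaving out a library moved most: without E1 DMSO replicate 3 it held 352 genes in place of 212.

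Of the 256 genes without a baseline, 174 (1.08% of the genes tested) had a lower and 82 (0.51%) a higher response in E1. The line difference under tazemetostat had the sign of the response difference in all but 2 of them, XAF1 and KRT7, both named after their values were seen. With so few reads in DMSO the response difference is nearly this line difference, so the shared sign was largely set in advance. These genes also passed the filter through their treated groups alone. From the same treated libraries edgeR called the line difference for 236 of the 256, with the same sign in each. It called the response difference itself for 13. DDIT4L, an inhibitor of mTOR signalling, had 0 reads in all 6 DMSO libraries, 157, 129 and 150.2 normalized counts in treated WT and 1.06, 2.90 and 0.942 in treated E1, which is within the floor. C8orf4 was likewise at 359.7, 373 and 313 in treated WT and 2.13, 0.967 and 4.71 in treated E1, and KRTAP3-1, a hair keratin associated protein of a family with near-identical members, at 116, 99.1 and 78.8 and 2.13, 0 and 0.942. In the other direction PRKD1, a protein kinase D, was at 15.8, 15 and 20.9 in treated WT and 495, 543 and 604 in treated E1. The near-identical TRIM49 and TRIM49C were at 10.6 ± 5.44 and 4.96 ± 2.51 in treated WT and at 151 ± 29.5 and 109 ± 6.20 in treated E1. For these 6 genes the edgeR adjusted p of the response difference was 1.

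The response difference was split into the line difference without and with inhibitor. E1 and WT differed in DMSO for 791 genes (4.92% of those tested), 390 of them higher in E1 (2.43%) and the others lower (2.49%). Under tazemetostat they differed for 1832 (11.4%), 874 higher (5.43%) and 958 lower (5.96%). Among the 1572 genes with a response difference, the lines differed only under tazemetostat for 864 (55.0%, against 9.12% of all genes tested) and only in DMSO for 244 (15.5%, against 2.65%). A higher share follows from the selection, since the response difference is the line difference under tazemetostat minus that in DMSO. The lines differed in both for 102 and by the threshold in neither for 362. Of the 102, 74 kept the sign of the line difference and 28 turned it. Of the classes with a baseline and a direction, lost falls had the highest and increased rises the lowest share with a line difference only under tazemetostat, at 73.3% and 14.5%.

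**Figure D3:**
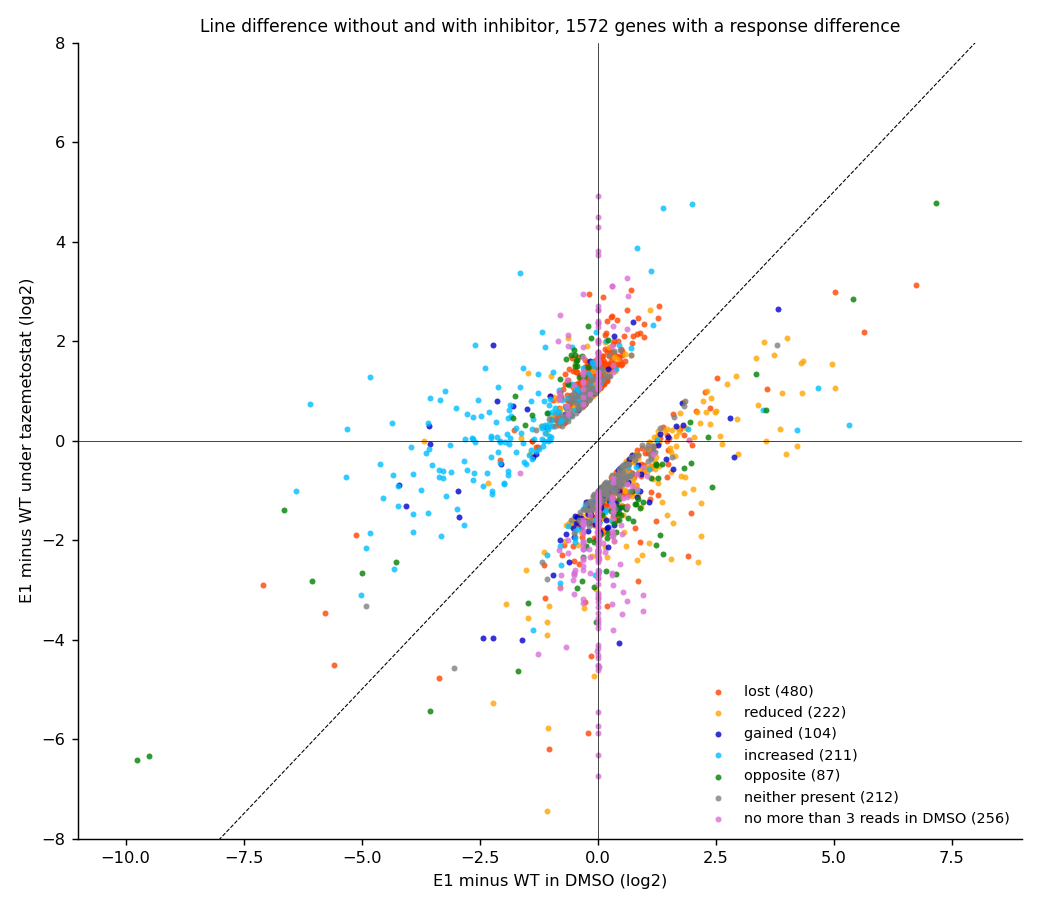
Log2 difference of E1 minus WT under tazemetostat (vertical axis) against that in DMSO (horizontal axis) for the 1572 genes with a response difference, coloured by class, with equal line differences dashed. Lost falls cluster above zero at a DMSO difference near zero, with medians of 1.23 and -0.1, while increased rises spread to the left near a difference of zero under tazemetostat, with medians of -1.57 in DMSO and 0.32 under tazemetostat.

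Of 38 collagens and matrix genes tested, 8 had a lower (21.1%, against 5.17% of all genes tested) and 2 a higher response (5.26%, against 4.6%) in E1. The median was -0.38, although 26 rose in WT and 22 in E1. Of these calls, 5 of the 8 and both of the 2 were in genes without a baseline in DMSO, where edgeR called few. TNC, the matrix protein tenascin C, had at most 1 read in any DMSO library and was at 1194, 1261 and 1041 normalized counts in treated WT and 293, 313 and 320.3 in treated E1, with -2.22 ± 0.34 (SE, limma adjusted p = 0.00024). edgeR and DESeq2 did not call it, at adjusted p of 0.17 and 0.18. LUM, the proteoglycan lumican, was at 325 ± 37.5 in treated WT and 49.8 ± 8.77 in treated E1. Its difference was -2.20 ± 0.48 (SE, limma adjusted p = 0.0036) in limma, whereas edgeR gave -0.08 with an adjusted p of 0.6. Of the estimates for 20 contractile and YAP or SRF targets, 18 were below 0, with a median of -0.48. Only 1 gene was called lower (5.0%, near the 5.17% of all genes tested) and 0 higher. That gene, ACTA2 (smooth muscle actin), rose from 3.49, 0 and 0.946 to 3106, 3132 and 2893 normalized counts in WT and from 8.93, 12.5 and 8.77 to 5492, 5278 and 5631 in E1. Its difference was -1.57 ± 0.52 (SE, limma adjusted p = 0.034), and it lost the call without any of 9 of the 12 libraries, at adjusted p up to 0.069.

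Of 47 axon guidance genes tested, 8 had a lower (17.0%, against 5.17% of all genes tested) and 5 a higher response (10.6%, against 4.6%) in E1. Of these calls, 2 of the 8 and 1 of the 5 were in genes without a baseline in DMSO. NRP1, a receptor for semaphorins and VEGF, was at 0.893, 1.93 and 0.974 normalized counts in untreated and 357, 411 and 344 in treated E1, and at 78.6, 45.2 and 42.6 and 546, 526 and 470.4 in WT, with 4.14 ± 0.33 (SE, limma adjusted p = 8.9e-07). PLXNC1, a plexin, had 0 reads in DMSO and was at 47.2 ± 9.62 in treated WT and 6.49 ± 3.37 in treated E1. Neither edgeR nor DESeq2 (adjusted p = 0.22) called its response difference. Of 45 developmental transcription factors tested, 5 were higher (11.1%, against 4.6% of all genes tested) and 3 lower (6.67%, against 5.17%). A baseline in DMSO was missing for 1 of the 5 and 1 of the 3. TWIST1, a driver of mesenchymal transition, was at 0.893, 0 and 1.95 in untreated and 119, 116 and 116 in treated E1, and at 26.2, 24.5 and 12.3 and 60.1, 66.4 and 65.3 in WT, with 4.43 ± 0.49 (SE, limma adjusted p = 1.7e-05). GATA6, an endoderm factor, gave 3.32 ± 0.37 (SE, limma adjusted p = 1.7e-05), also from an E1 baseline at the floor.

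Of 31 HOX genes tested, 6 had a higher (19.4%, against 4.6% of all genes tested) and 2 a lower response (6.45%, against 5.17%) in E1. The median was 0.37. HOXD9 was at 47.2, 52.8 and 66.2 and 154, 159 and 179 normalized counts in WT and 11.6, 18.3 and 8.77 and 128, 114 and 117 in E1, with 1.61 ± 0.31 (SE, limma adjusted p = 0.0015). HOXD13 gave 1.93 ± 0.63 (SE, limma adjusted p = 0.031) at a baseline of 0 in E1, and lost the call without E1 DMSO replicate 1, E1 tazemetostat replicate 2 or 3, or WT tazemetostat replicate 1 or 3, at adjusted p of 0.055 to 0.065. Of 31 p53 targets, 1 was lower (3.23%, against 5.17% of all genes tested) and 0 higher. This was PLK2, at -1.08 ± 0.21 (SE, limma adjusted p = 0.0017), which fell below the fold limit at -0.96 without E1 DMSO replicate 2. The median line difference of the p53 targets in DMSO was 0.62. Of 14 BCL2 family genes 1 was lower (7.14%, against 5.17% of all genes tested). It was the pro-apoptotic PMAIP1, at 48.3, 37.4 and 45.6 in treated WT and 5.32, 2.90 and 7.54 in treated E1. PMAIP1 had at most 1 read in any WT or E1 library with DMSO. Neither edgeR (adjusted p = 0.12) nor DESeq2 (adjusted p = 0.073) called its response difference. The 26 cholesterol and fatty acid synthesis genes and the 79 ribosomal protein genes held no called gene, against 9.77% of all genes tested. At that share only a few calls would fall among 26 genes. The median differences of the 2 lists were -0.04 and 0.21. VWF, the endothelial marker that passed the filter, gave -1.68 ± 0.58 (SE, limma adjusted p = 0.042) and lost the call without any of 8 libraries, at adjusted p of 0.056 to 0.11, and in DESeq2 (0.061). With DMSO it had 2, 2 and 0 reads in WT, which is at the floor, and 10, 4 and 3 in E1. Under tazemetostat the lines differed by -0.15 on the log2 scale, so the VWF call rests on a few reads in DMSO.

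**Figure D4:**
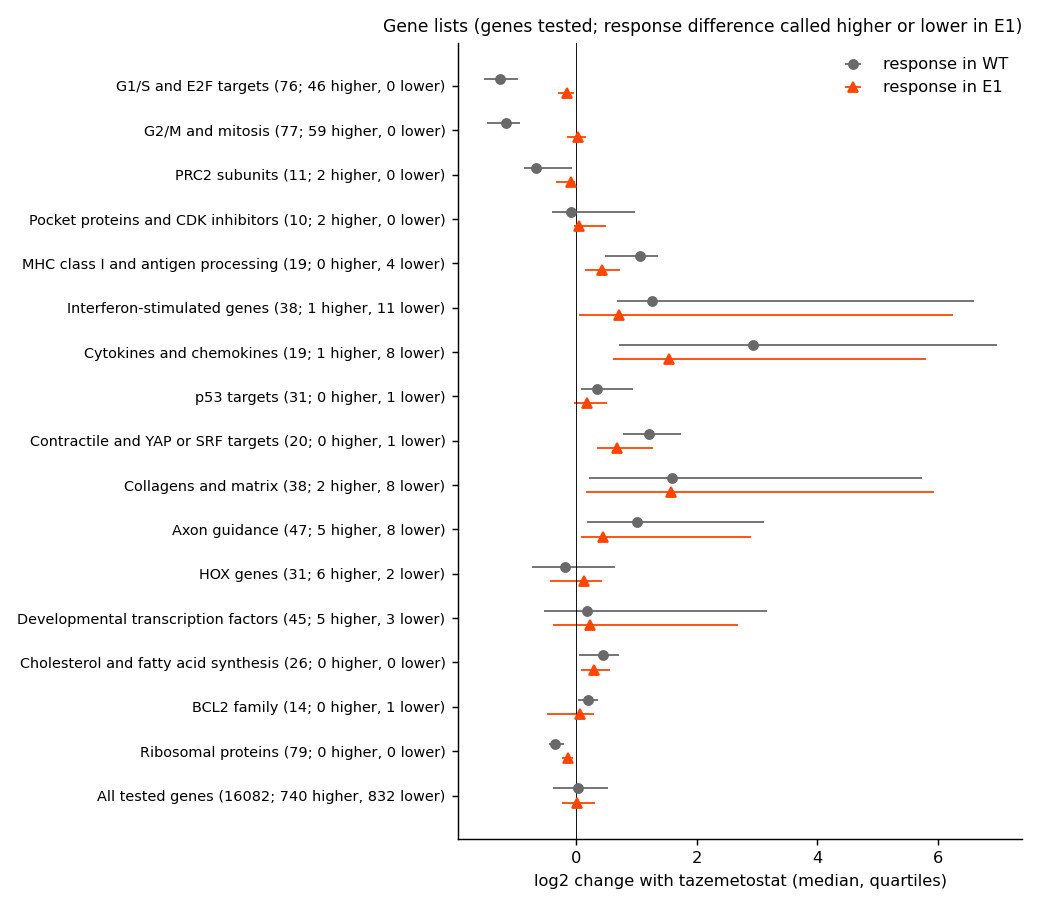
Median and quartiles over genes of the log2 change with tazemetostat in WT (circles) and E1 (triangles) for 16 gene lists and all tested genes, with the genes tested and the counts called higher or lower in E1 in brackets. The 2 cell cycle lists lie at -1.25 and -1.15 in WT and near 0 in E1, while the median response difference is 0.21 over ribosomal proteins and 0.01 over all tested genes.

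F2 was not used to choose any class, so its response was set beside those of WT and E1 as a description. Over all genes tested, F2 responded by the threshold in 2711 (16.9%) and its response was absent in 10639 (66.2%). Of the 311 lost falls, the F2 response was absent for 238 (76.5%). It was a called fall for 12 (3.86%, near the 3.69% of all genes tested). It was nearer to the E1 than to the WT response for 288 (92.6%), against 58.0% of all genes tested. The WT fall had to be large for a gene to enter this class, which favours a smaller value in any other line. For the 94 genes on a cell cycle list the F2 response was absent in 83, with a median of -0.22. EZH2 responded by -0.27 in F2, CCNA2 by -0.38, MKI67 by 0.21 and RBL1 by -0.36.

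Lost rises read differently in F2. The median F2 response of the 169 genes was 0.87, and 77 of them rose (45.6%, against 13.2% of all genes tested). Of the 169, 80 were nearer to E1 than to WT (47.3%, against 58.0%). PPARGC1A reached 100.2 ± 4.58 normalized counts in treated F2 from 1.96 ± 2.56, and SLC2A3 331 ± 31 from 46.8 ± 15.4, where E1 showed neither rise by the threshold. Of the 180 reduced rises 163 rose in F2 (90.6%, against 13.2% of all genes tested), with 48 nearer to E1 (26.7%, against 58.0%). Of the 80 gained falls 24 fell in F2 (30.0%, against 3.69%), among them PRR18, at -2.53. Of the 24 gained rises 4 rose in F2 (16.7%, near the 13.2% of all genes tested) and 3 fell (12.5%, against 3.69%). LTBP1 and CLDN16 were at -1.31 and -3.66. Among the opposite responses, 57 genes had a WT estimate above 0. Of these F2 rose for 16 (28.1%, against 13.2% of all genes tested) and fell for 5 (8.77%, against 3.69%). HTR6 was at 0.27 and LIN28B, an opposite response with a WT estimate below 0, at 0.34. MYPN and LHX6 fell in F2 by 2.67 and 2.96 on the log2 scale. CCL2 was at 719 ± 69.6 and DDIT4L at 0 in treated F2. Whether the E1 and F2 responses differ was not tested.

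**Figure D5:**
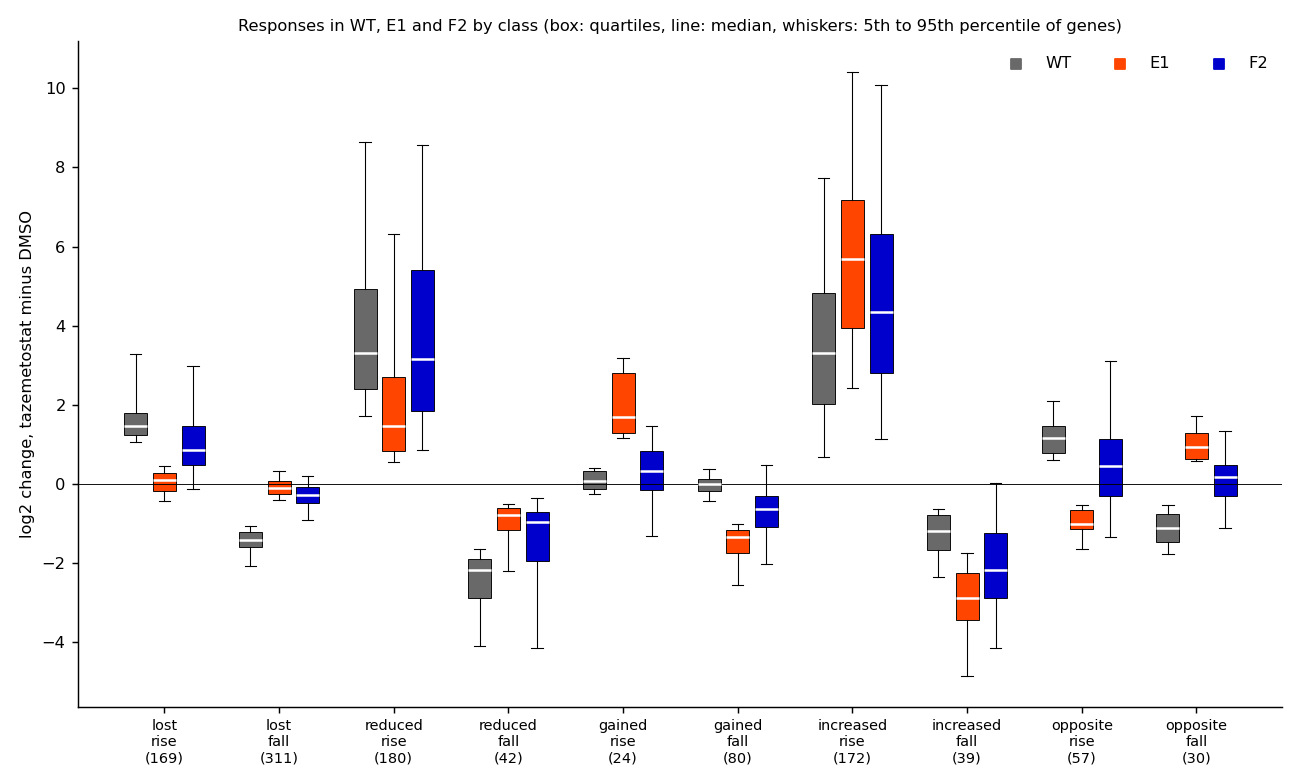
Log2 change with tazemetostat in WT, E1 and F2 for the 5 classes with a present response, split by direction, with the number of genes below each, boxes for the quartiles and white lines for the median over genes. For the lost falls F2 lies near E1 (medians -0.28 and -0.09 against -1.42 in WT), while for the lost rises it lies between the lines (0.87 against 0.09 and 1.46).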

How the data were processed

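Poly(A) RNA of G401 cells was sequenced from a stranded kit, per the labels' protocols. Values for 55765 gene symbols in 18 samples, as the authors deposited them, are a signal: each count had been divided by the size factor of its sample. The submitters' processing notes name Trim Galore 0.4.4, STAR 2.6.0a, HTSeq, DESeq2 and the build hg19, with no roles. The annotation and the strand setting are not given in the sources used here. Values times the size factor (0.812 to 1.1449 in the 12 libraries) were whole reads within 0.001 for 100% of values. Counting error alone is covered by the floor of 3 reads per library, since PCR copies were not told apart.

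Groups came from the sample titles, and 0 columns were left unmapped. Tests used limma 3.58.1 in R 4.3.3 (lmFit, eBayes with trend) on log2(value + 1) as 4 group means fitted together, with no block, over genes with a mean of at least 10. F2 values came from a fit of all 18 libraries. A direction is that of the WT response for lost, reduced and opposite genes, of the E1 response for gained and increased ones, and of the difference otherwise. Folds against a group at the floor were computed against 3 reads per library.

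The genes, lists and classes were chosen with earlier results of these data known. Named genes were 12 fixed genes, the 3 with the largest difference per class and direction (group mean of at least 50 in 1 group, called by edgeR except without a baseline, no clone-based name), and the 2 with the largest per list. A gene that the rule gave among the reduced rises is not reported here. Others are marked where named. Alternatives were other pseudocounts, filters, scalings, limits and thresholds, a replicate block, leaving out each library, all 18 libraries in the fit, and edgeR 4.0.16 and DESeq2 1.42.0 on the recovered reads. In simulated counts for 16082 genes with 200 changed genes, limma recovered 100% of 4-fold and 91% of 2.5-fold response differences, and 8.612% of its calls were false. The changed genes were drawn only from genes with a mean of at least 50 and at least 10 in each DMSO group. The recovery thus does not cover genes near the floor or without a baseline in DMSO. No coordinates are given on hg19, the build of the notes. Those of promoter windows are on GRCh38.p14. Plots used matplotlib 3.10.9 (Python 3.11.15).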

Additional observations from a re-analysis of the deposited data

Results flagged for a closer look

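Every response difference past the threshold is a difference between 2 lines under the same treatment contrast, so the called genes that the naming rule gave stand here, together with the totals: 740 genes responded higher in E1 and 832 lower. The values are log2 response differences, E1 minus WT, tested in limma as contrasts of the 4 groups.

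Among lost falls they were 1.42 for EZH2, 1.70 for CCNA2, 1.60 for MKI67, 1.27 for AURKB, 1.54 for RBL1, 2.77 for CCNB3, 2.11 for DLEU2, 2.03 for E2F8, 2.01 for WDR76 and 1.71 for SPC25. Among lost rises they were -5.67 for PPARGC1A, -4.17 for ALPPL2, -3.66 for SLC2A3 and -1.24 for HLA-E. Reduced rises held -4.56 for HLA-DPB1, -4.33 for PRICKLE2, -1.20 for HLA-B, -1.08 for PLK2, -1.57 for ACTA2 and -1.68 for VWF. Reduced falls held 2.13 for KCNT2, 1.80 for ACSBG1, 1.68 for CALCRL and 1.10 for CDKN2C.

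Gained rises held 3.87 for LTBP1, 3.31 for CLDN16, 2.93 for PRKD3 and 2.73 for CDH1, and gained falls -3.22 for RPS15AP36, -2.41 for CRISPLD1 and -1.96 for PRR18. Increased rises held 5.54 for PGBD5, 6.82 for MDFIC, 6.10 for PTGFRN, 1.21 for JARID2, 3.34 for CXCL1, 4.14 for NRP1, 1.93 for HOXD13, 1.61 for HOXD9, 4.43 for TWIST1 and 3.32 for GATA6. Increased falls held -2.88 for GRAMD3, -2.64 for MYPN and -2.64 for LHX6. Opposite responses held -3.33 for PDE2A, -3.22 for HTR6, -2.95 for RNF182, -1.99 for IFI6, 5.26 for LIN28B, 3.35 for PDE11A and 3.25 for RAG2.

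With neither response present the values were 1.62 for AKAP7, 1.58 for FRZB, 1.45 for MYH3, -1.91 for DLL4, -1.89 for MYL10 and -1.73 for WNT5B. Without a baseline in DMSO they were 4.92 for PRKD1, 4.30 for TRIM49C, 3.81 for TRIM49, -6.73 for C8orf4, -5.87 for DDIT4L, -5.74 for KRTAP3-1, -1.78 for RSAD2, -5.45 for CCL2, -2.22 for TNC, -2.20 for LUM, -2.76 for PLXNC1 and -3.23 for PMAIP1.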

How the results depend on the processing

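The total of 1572 response differences lay between 1461 and 1857 over the 12 fits without 1 library, and 1539 of the 1572 were shared with the fit of all 18 libraries. DESeq2 and edgeR called 33 and 13 of the 256 genes without a baseline. With every library scaled to the same total, 55.0% of the calls were higher in E1 against 47.1%, 64 falls were reduced, and the median WT response of all genes shifted to -0.121. A mean of at least 50 left 1113 rises in E1, line differences of 242 and 253 in DMSO and 544 and 574 under tazemetostat, 14 gained rises, 34 and 12 opposite responses, 135 with neither present and 109 without a baseline. With no filter there were 4183 rises in WT and 3136 in E1, 1368 and 1687 line differences under tazemetostat, 51 opposite falls and 619 genes without a baseline. With a pseudocount of 5 there were 13 opposite falls.

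With no fold limit the response differed for 2412 genes higher and 2628 lower, WT responded in 5411 and 4511, E1 in 4042 and 2882, and the lines differed in 1590 and 1510 in DMSO and 3774 and 4051 under tazemetostat. The classes then held 1308 lost rises and 1483 lost falls, 408 and 142 reduced, 355 and 493 gained, 95 increased falls, 104 opposite rises and 88 with neither present. Taking a response as absent under 0.25 gave 94 lost rises, 117 reduced falls, 13 and 53 gained, and 98 and 57 opposite. Under 0.75 it gave 22 reduced falls, 43 gained rises, and 24 and 9 opposite.

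Without 1 library the genes higher ranged from 689 to 813 and those lower from 758 to 1044, and the class with neither present from 183 to 352, the last without E1 DMSO replicate 3. Lost falls ranged from 288 to 332. CDKN1C ranged from -0.08 to 0.40, and turned to -0.05 without E1 DMSO replicate 3 and to -0.08 without WT tazemetostat replicate 1, at limma adjusted p of 0.93 and 0.9. Of the 69 called named genes, ACTA2, HOXD13, VWF, CALCRL and PLK2 lost the call without 1 library. edgeR lost 12, all of the class without a baseline. DESeq2 lost 8, of which FRZB and VWF were outside that class (adjusted p of 0.05 and 0.061), although VWF was at the floor in untreated WT.

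The replicate number as a block gave 1577 calls, 752 of them higher. Deviations of same-numbered libraries correlated between -0.251 and 0.321 over 18 pairs, 4 of them over 0.1, and 4 of 12 libraries correlated best with their own number, so the numbers were not taken as pairs. Genes at or under 3 reads limit what depth can show, which touches 380 of the 1572 genes in at least 1 group.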
